A study of Homo sapiens with 35 samples.

Results

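The response of a U937 double knockout to TPA was measured by RNA-seq in 6 libraries of a series of 35. There were 3 libraries of TPA-treated double knockout (DKO) cells and 3 of DKO cells without TPA, chosen by their sample labels and column names. U937 is a human myeloid leukaemia line with features of an immature monocyte. The DKO cells were made with guide RNAs against SUV39H1 and SUV39H2, and the untreated DKO libraries carry clone number 3 in their names, so they may all come from 1 clone. The TPA-treated DKO libraries carry no clone number. TPA is the usual abbreviation of the phorbol ester tetradecanoylphorbol acetate. The labels do not spell it out and give neither dose nor time. All U937 cells were kept in RPMI-1640 medium with fetal bovine serum, and poly(A) RNA was sequenced. Beside the DKO stood U937 cells with a control guide (sgControl) and cells with a guide against SUV39H1 alone (single knockout, SKO), each with and without TPA, with 3 libraries per group. Nothing says that replicates came from separate cultures, so the p-values rest on the spread among these libraries alone, and that spread may be technical.

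Every treated U937 library was deposited in one count table and every untreated one in another. Treatment and table therefore cannot be told apart within a genotype, while a shift common to all genotypes cancels in a difference of responses. The untreated libraries were not named alike: those of sgControl and SKO carry a date code and those of DKO carry none. A run difference particular to the untreated DKO libraries would not cancel, and it cannot be told apart from genotype in any difference of responses. The table with the TPA libraries also holds untreated MOLM-13 and OCI-AML-3 cells, and the other holds THP-1 cells. Group means were compared over all 59428 gene rows, with or without reads, after 0.2 CPM was added. For 4 genes all 7 groups of the table with TPA were at least 2-fold above all 6 groups of the other. For 3 genes they were at least 2-fold below. A shift between tables that is smaller than the differences between lines would not show in these counts.

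Phorbol esters bind the site on protein kinase C that normally takes diacylglycerol. The kinase then drives the MAP kinase cascade and the transcription factors AP-1 and NF-kB, and monocytic leukaemia lines stop dividing, attach and take on macrophage genes. The 2 SUV39H enzymes add the third methyl group to lysine 9 of H3 (H3K9me3), which keeps heterochromatin and many transposable elements silent. The title of the series concerns an immune response set off by such elements and held back by the mark. Interferon-stimulated genes are the usual readout of such a response: interferon, or sensors of nucleic acid, raise them through IRF factors and their partners.

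The DKO libraries held 33421358 to 36764338 counted reads without TPA and 35559498 to 38210475 with TPA. Mitochondrially encoded genes took 5.78% to 6.18% of reads without and 2.80% to 2.93% with TPA, and ribosomal protein genes went from 4.97% to 5.07% down to 2.04% to 2.28%. Levels are given as CPM, counts per 1000000 with library sizes scaled by the trimmed mean of M-values, and fold changes as log2 with the standard error (SE) of edgeR's quasi-likelihood fit, TPA over no TPA. TPA replicate 1 of the DKO stood slightly apart. For 4 genes chosen after their values were seen (ALCAM, OSBPL1A, IMPACT and ONECUT2), present in sgControl and close to 0 in untreated DKO, it held a median of 7.76% of the level of TPA-treated sgControl, against 1.94% and 1.56% in the other two. Without it, 6153 genes rose and 6028 fell with TPA, against 6271 and 6142 with it.

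SUV39H1 (chromosome X, 48695554 to 48709016, hg38) and SUV39H2 (chromosome 10, 14878820 to 14904315) were still transcribed in the DKO. SUV39H1 was at 80.5, 81.3 and 81.2 CPM without TPA and at 22.6, 22.1 and 22.6 CPM with it. SUV39H2 was at 32.5, 34.1 and 29.6 CPM without TPA and at 10.7, 9.34 and 9.84 CPM with it. Both fell in every treated library, by 1.85 (SE 0.0532, adjusted p = 3.93e-27) and by 1.68 (SE 0.0728, adjusted p = 1.19e-21) on the log2 scale. Counts over the whole gene do not show whether a short edit ended the protein, so these levels do not check the knockout. Both genes also fell with TPA in sgControl, with log2 fold changes of -0.84 and -1.08.

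TPA went with a change in most of the transcriptome of the DKO. Of 16989 genes tested, 6271 (36.9%) rose and 6142 (36.2%) fell at an adjusted p of 0.05, with a median log2 fold change of 0.0316. At 2-fold or more, 3655 genes (21.5%) rose and 2688 (15.8%) fell. At 16-fold or more, 822 (4.84%) rose and 64 (0.377%) fell, so the steepest changes were mostly rises. In the same fit, 3004 genes (17.7%) rose and 1332 (7.84%) fell by 2-fold or more in sgControl, and 2696 (15.9%) rose and 773 (4.55%) fell in SKO. Of the 3655 DKO rises, 57.3% were also rises of 2-fold or more in sgControl, which is 69.7% of the sgControl rises. Of the 2688 DKO falls, 33.7% were also falls of that size in sgControl, which is 68% of the sgControl falls. With a bulk measurement, fewer cells of a type and less RNA per cell cannot be told apart.

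**Figure D1:**
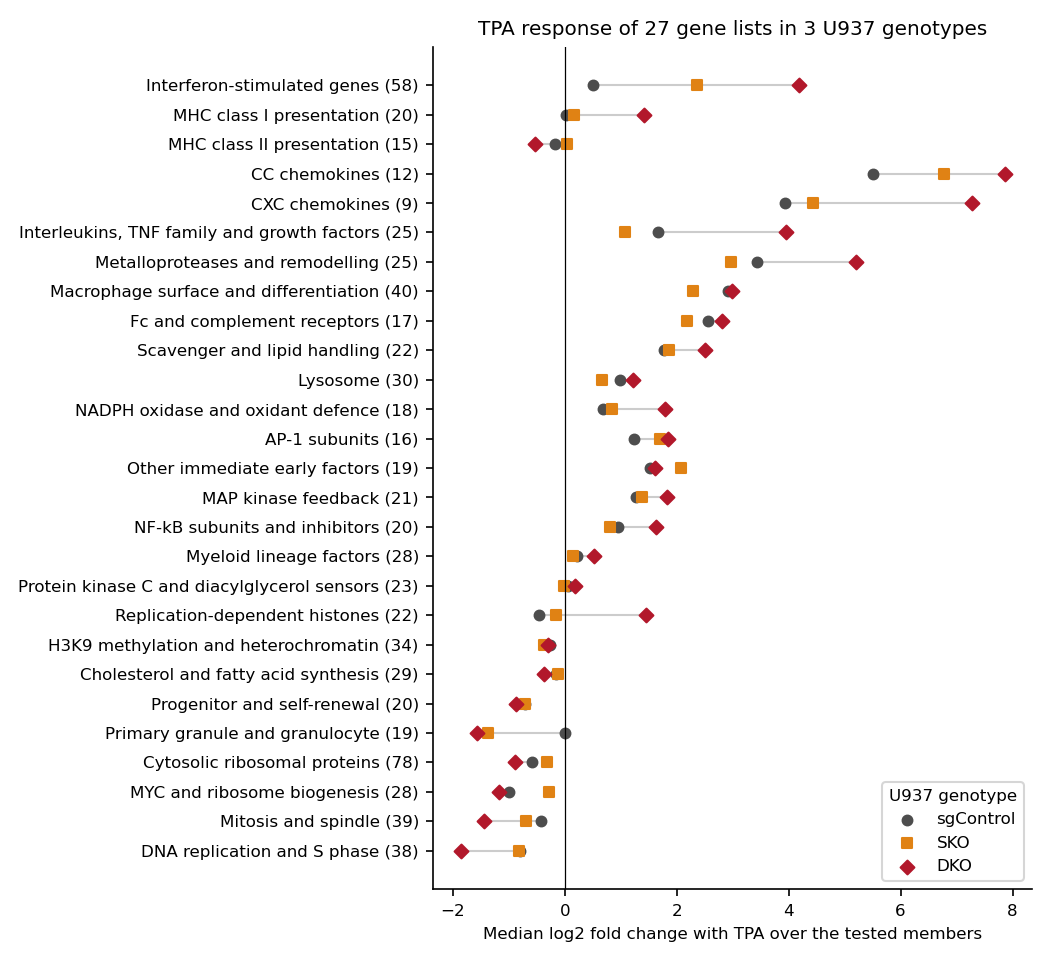
Median log2 fold change with TPA (x axis) of 27 gene lists (y axis, number of tested members in brackets) in U937 sgControl (circles), SKO (squares) and DKO (diamonds). In DKO, interferon-stimulated genes sit at 4.18 against 0.50 in sgControl, while macrophage surface genes sit at 2.99 against 2.92 and S phase genes at -1.86 against -0.79.

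Of 23 tested genes for protein kinase C and other diacylglycerol sensors, 9 rose and 9 fell, shares close to the 36.9% and 36.2% of all genes tested. PRKCB, one of the classical isoforms, had 515 CPM without and 586 CPM with TPA, and PRKCD, a calcium-independent isoform, had 269 CPM in both. PRKCA was close to 0 in both groups, at 0.223 and 0.299 CPM. RASGRP3, which passes the diacylglycerol signal to Ras, rose from 1.5 ± 0.411 to 152 ± 3.29 CPM (mean ± SD, n = 3), a log2 fold change of 6.66 against 6.89 in sgControl. RASGRP2, a relative, fell from 57.0 to 10.1 CPM.

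Genes downstream of the kinase rose broadly. Among inhibitors and feedback genes of the MAP kinase pathway, 18 of 21 rose and 2 fell (median 1.83), and among AP-1 subunits 13 of 16 rose and 2 fell (median 1.85). With RLE size factors 1 fell in each list. DUSP6, a phosphatase that switches off ERK, was at 30.8, 31.2 and 30.7 CPM without TPA and at 553, 572 and 587 CPM with it. The groups lay far apart and the log2 fold change was 4.21 (SE 0.0498, adjusted p = 4.82e-39). JUN, the founding AP-1 subunit, went from 92.4, 85.3 and 92.3 to 739, 818 and 800 CPM, and FOSL1 only from 17.5, 17.3 and 16.6 to 36.9, 35.7 and 41.0 CPM. EGR1, an immediate early zinc finger factor, rose from 5.03, 3.76 and 5.00 to 32.4, 35.9 and 33.9 CPM. In sgControl, EGR1 started higher, at 15.3 CPM, and stood at 10.5 CPM with TPA, and the difference of the responses was 3.44 (SE 0.136, adjusted p = 7.42e-22). Of 20 NF-kB subunits and inhibitors, 19 rose and 0 fell (median 1.63), among them TRAF1 (0.554 to 43.8 CPM) and NFKBIZ (1.19 to 24.7 CPM).

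Other immediate early factors behaved like AP-1, with 15 of 19 higher and 3 lower (median 1.62). ZFP36L1, which marks AU-rich mRNA for decay, rose from 1.63 to 847 CPM and EGR2, a relative of EGR1, from 0.891 to 137 CPM. SRF, the serum response factor, fell from 283 to 182 CPM.

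Of 28 tested myeloid lineage factors 14 rose and 8 fell (median 0.52), beside 36.9% and 36.2% of all genes tested. SPI1, which encodes the myeloid master factor PU.1, rose only from 176 to 281 CPM, and CEBPB from 32.5 to 210 CPM. MYB, a factor of proliferating progenitors, fell from 569 to 83.6 CPM, GFI1 from 412 to 44.4 CPM and NFE2 from 52.0 to 3.20 CPM.

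Macrophage surface and differentiation genes rose as a group, with 33 of 40 tested members higher, 5 lower and a median of 2.99. Without TPA replicate 1, 32 rose and 5 fell, with a median of 3.01. CD14, the co-receptor for bacterial lipopolysaccharide, was at 0, 0.183 and 0.227 CPM without TPA and at 25.9, 28.1 and 26.3 CPM with it. CD163, a haemoglobin scavenger receptor, went from 1.33, 0.496 and 0.795 CPM to 696, 749 and 744 CPM. MSR1, the class A scavenger receptor, had 0 reads in all 3 untreated DKO libraries and 81.9, 95.9 and 87.4 CPM with TPA. Against a floor of 3 reads over the untreated group, that is at least 3220-fold higher. In none of these genes did a treated library come near an untreated one. CSF1R, the receptor for the macrophage growth factor M-CSF, rose from 12.1 to 138 CPM. CD33 fell from 85.0 to 45.6 CPM and AIF1 from 111 to 46.7 CPM. CD68, a common macrophage marker, stayed near 0, at 0.128 and 0.302 CPM (adjusted p = 0.131). It was also near 0 in sgControl, at 0.0725 and 0.142 CPM. The untreated counts left out reads that fit several genes, so a level near 0 need not mean a silent gene. Whether this touched CD68 was not tested.

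**Figure D2:**
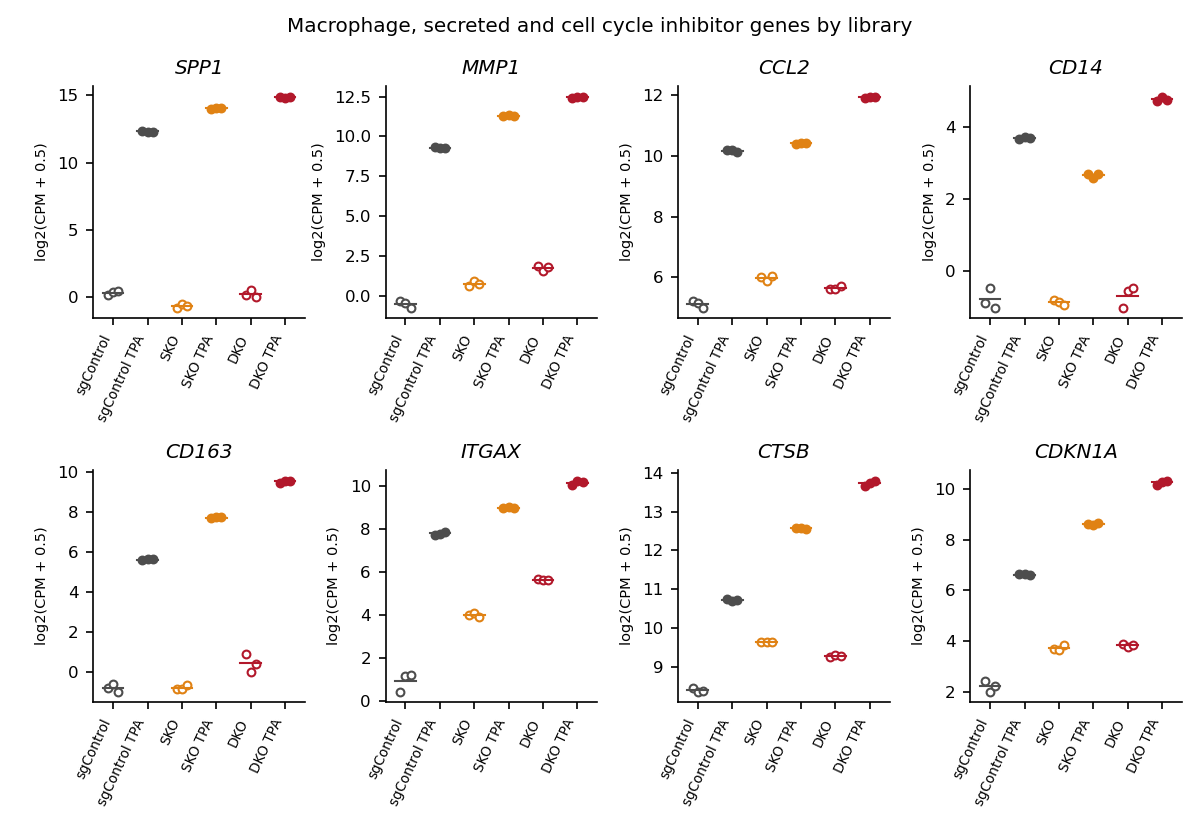
Level of 8 genes as log2(CPM + 0.5) (y axes, scaled per gene) in each library of 6 U937 groups (x axes). Open points are untreated and filled points TPA-treated libraries, coloured by genotype, and bars are means of 3. In each gene the 3 treated DKO libraries lie above the 3 untreated ones, and for ITGAX the untreated DKO libraries already lie above the untreated sgControl libraries.

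The integrins showed where the DKO started from a different level. ITGAX, which encodes CD11c, rose from 50.0, 48.8 and 49.0 CPM to 1071, 1231 and 1157 CPM, and ITGAM, which encodes CD11b, from 134, 136 and 135 to 313, 349 and 333 CPM. In untreated sgControl the same genes were at 1.45 and 4.13 CPM, and TPA took them to 223 and 97.1 CPM. The log2 response of the DKO minus that of sgControl was -2.73 (SE 0.125, adjusted p = 7.16e-20) for ITGAX and -3.26 (SE 0.0754, adjusted p = 8.27e-29) for ITGAM, although the treated levels were higher in DKO. Over all 40 macrophage surface genes, the DKO response was larger than that of sgControl for 10 and smaller for 16. Over all genes tested, it was larger for 21.7% and smaller for 27.8% (49.6% in either direction), a lean that RLE size factors removed, with 4161 genes larger and 4210 smaller. Against SKO, it was larger for 22.1% of all genes and smaller for 27.4% (49.5% in either direction). SIGLEC1, a sialic acid receptor of macrophages that interferon also raises, went from 60.0 to 1332 CPM in DKO, from 0.23 to 1.58 CPM in sgControl and from 1.39 to 247 CPM in SKO.

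Attachment and shape genes rose in part. Of 25 integrin and adhesion genes 18 rose and 6 fell (median 1.35), and of 26 cytoskeletal genes 19 rose and 4 fell (median 1.10, or 0.72 without TPA replicate 1 of the DKO). VIM, the intermediate filament vimentin, rose from 38.1 to 876 CPM and GSN, which severs actin, from 45.0 to 506 CPM. ACTB and ACTG1, the cytoplasmic actins, fell from 5735 to 4433 CPM and from 4512 to 2578 CPM. SELPLG, the ligand of P-selectin, fell from 126 to 45.6 CPM.

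Phagocyte machinery followed. All 17 tested Fc and complement receptors and components rose (median 2.81), as FCGR3A, the low-affinity IgG receptor CD16a, did from 2 reads in the untreated group (0.0174 CPM) to 21.7 CPM. With so few reads the ratio of 1190 has a 95% counting interval of 329 to 9830. Of 22 scavenger and lipid handling genes 17 rose and 2 fell (median 2.51), such as FABP4, a fatty acid carrier (0.170 to 174 CPM), and OLR1, a receptor for oxidised lipoprotein (0.110 to 93.7 CPM). Of 30 lysosomal genes 27 rose and 1 fell (median 1.22). CTSB, which encodes cathepsin B, went from 612, 634 and 625 CPM to 12840, 13630 and 14230 CPM, and the response was larger than in sgControl by 2.12 (SE 0.0443, adjusted p = 5.21e-30). CTSL, which encodes cathepsin L, had 0 reads in untreated DKO and 24.8, 24.1 and 27.6 CPM with TPA, at least 932-fold higher. In sgControl CTSL went from 0.0680 to 0.378 CPM, and in SKO from 0.189 to 3.94 CPM. CTSD, another cathepsin, rose only from 1532, 1578 and 1534 to 2572, 2792 and 2864 CPM, less than in sgControl (difference -0.67, SE 0.0625). LYZ, the lysozyme gene, fell from 384 to 163 CPM, whereas it rose in sgControl from 264 to 625 CPM. Of 18 genes for NADPH oxidase and oxidant defence 17 rose, among them CYBB, the catalytic subunit (11.2 to 121 CPM), and SOD2, a mitochondrial superoxide dismutase (120 to 957 CPM).

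Several secreted proteins rose steeply. SPP1, which encodes osteopontin (chromosome 4, 87975667 to 87983532), was at 0.583, 0.939 and 0.511 CPM without TPA and at 29640, 29090 and 30870 CPM with it. Its log2 fold change was 15.41 (SE 0.0665, adjusted p = 1.82e-52), and it took 2.61% to 2.74% of all counted reads of the treated libraries. Treated sgControl had 5086 CPM and treated SKO 16690 CPM of SPP1. MMP1, the interstitial collagenase (chromosome 11, 102789401 to 102798160), rose from 3.22, 2.53 and 2.98 to 5464, 5556 and 5790 CPM. For MMP1 the difference from the sgControl response, -0.49 (SE 0.229, adjusted p = 0.111), did not pass the test. MMP12, the macrophage elastase, had 0 reads without TPA and 43.3, 46.1 and 51.5 CPM with it (at least 1720-fold), against 0.0158 CPM in treated sgControl and 5.05 CPM in treated SKO. Of 25 metalloproteases and remodelling genes 22 rose and 2 fell (median 5.2). PLAUR, the urokinase receptor, rose from 63.2 to 1379 CPM and SERPINB2, an inhibitor of urokinase, from 24.6 to 700 CPM. On a scale per kilobase of exon (CPM per kilobase, RPKM), SPP1 stood at 4120 in treated DKO, above MMP1 at 2047, CCL2 at 1973 and CTSB at 1287.

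All 12 tested CC chemokine genes rose (median 7.86) and all 9 tested CXC chemokine genes rose (median 7.27, or 5.34 with genes at 0 set at their bound). CCL2, the main monocyte attractant, went from 49.1, 48.7 and 51.7 CPM to 3829, 3943 and 3981 CPM, and the treated level was 1158 CPM in sgControl and 1367 CPM in SKO. CCL4 was at 0, 0.104 and 0 CPM without TPA and at 273, 300 and 305 CPM with it. CXCL8, a neutrophil attractant also known as interleukin 8, rose from 32.7, 32.9 and 37.0 to 1394, 1328 and 1430 CPM. Of 25 interleukins, TNF family members and growth factors 21 rose and 2 fell (median 3.95). IL1B rose from 2.89, 4.02 and 2.61 to 386, 398 and 398 CPM, a response larger than in sgControl by 3.47 (SE 0.108, adjusted p = 7.48e-25). TNF rose from 2.83 to 42.5 CPM and the response was smaller than in sgControl (difference -0.80), where it reached 74.5 CPM. Of 23 cytokine receptor genes 18 rose and 4 fell (median 1.36). Of 11 chemokine receptor genes 6 rose and 5 fell, beside 36.9% and 36.2% of all genes tested. CCR1 rose from 39.9 to 589 CPM, while CCR2, the receptor for CCL2, fell from 10.2 to 0.609 CPM and CX3CR1, the fractalkine receptor, from 20.4 to 2.87 CPM.

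Interferon-stimulated genes rose throughout their list. All 58 tested members of the list rose in DKO, 56 of them by 2-fold or more, with a median of 4.18, or 4.11 with genes at 0 set at their bound. In sgControl 32 rose and 15 fell with a median of 0.50, and in SKO 48 rose with a median of 2.37. Of all genes tested, 34.6% rose and 33.2% fell in sgControl, and 31.5% rose and 31.4% fell in SKO. The DKO response was larger than that of sgControl for 57 members and smaller for 0. It was larger than that of SKO for 52 and smaller for 1, IRF9. Without TPA replicate 1, all 58 still rose, with a median of 4.19.

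The promoters of IFIT1 and ISG15, from this list, and of B2M, from the MHC class I list, are printed because each holds the letters of the interferon-stimulated response element, the site that IRF factors bind. They come from RefSeq (GRCh38.p14) and run from 250 bases before to 50 after the start, 5′ to 3′ along the gene, with each match to GAAA, any 2 bases and GAAA again, on either strand, in capitals. IFIT1 (chr10:89392373-89392672, plus strand), ISG15 (chr1:1013247-1013546, plus strand) and B2M (chr15:44711267-44711566, plus strand) each hold 2 matches. In ISG15 and B2M the 2 matches overlap.
IFIT1: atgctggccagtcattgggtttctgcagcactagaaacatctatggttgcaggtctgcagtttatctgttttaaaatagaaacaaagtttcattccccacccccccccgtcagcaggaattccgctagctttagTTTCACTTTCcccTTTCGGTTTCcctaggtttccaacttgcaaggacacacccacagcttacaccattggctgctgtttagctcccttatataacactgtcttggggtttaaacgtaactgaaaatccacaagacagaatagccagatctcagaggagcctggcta
ISG15: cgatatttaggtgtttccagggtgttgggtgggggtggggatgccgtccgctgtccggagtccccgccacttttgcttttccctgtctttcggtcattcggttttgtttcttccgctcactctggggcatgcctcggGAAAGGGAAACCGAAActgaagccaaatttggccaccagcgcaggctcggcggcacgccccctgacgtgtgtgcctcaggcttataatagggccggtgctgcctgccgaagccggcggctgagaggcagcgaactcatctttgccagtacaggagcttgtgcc
B2M: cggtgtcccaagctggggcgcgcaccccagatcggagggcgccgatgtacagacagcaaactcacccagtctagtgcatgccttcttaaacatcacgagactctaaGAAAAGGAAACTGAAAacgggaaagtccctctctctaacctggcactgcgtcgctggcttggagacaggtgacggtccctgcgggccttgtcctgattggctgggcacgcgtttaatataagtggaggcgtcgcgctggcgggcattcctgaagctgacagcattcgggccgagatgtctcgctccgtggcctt
Of all 27305 promoters in the RefSeq table, 996 (3.65%) hold the motif. The table held 16 of the 20 tested MHC class I genes, and 9 of the 16 hold it. It held 46 of the 58 tested interferon-stimulated genes (79.3%), under the 80% set for such a share, so none is given. The motif was chosen after the values had been seen, and a match shows letters, not binding.

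ISG15, a ubiquitin-like modifier, was at 27.8, 28.2 and 28.3 CPM without TPA and at 1571, 1652 and 1775 CPM with it. The log2 fold change was 5.89 (SE 0.0587, adjusted p = 2.27e-41), and in sgControl ISG15 went only from 7.17 to 12.7 CPM. The difference of the responses was 5.07 (SE 0.105, adjusted p = 4.37e-30). IFIT1, which binds viral RNA, rose from 11.8, 12.3 and 13.4 to 1240, 1198 and 1303 CPM. In sgControl IFIT1 was at 1.91 and 2.7 CPM, and in SKO it rose from 1.83 to 136 CPM. GBP1, a GTPase, rose from 0.111, 0.104 and 0.227 to 191, 191 and 200 CPM in DKO and was at 0.603 and 0.110 CPM in sgControl. For IFI44L, 2 reads in the untreated DKO stood against 82.8, 93.7 and 90.1 CPM with TPA, a ratio of 4860 with a 95% counting interval of 1340 to 40100. TNFSF10, the death ligand TRAIL, rose from 6.75, 7.10 and 7.10 to 116, 110 and 124 CPM, while it fell with TPA in sgControl from 4.93 to 3.29 CPM. MX1, a textbook member of the family, reached only 5.81 CPM in DKO, from 1.55 CPM. In all of these genes the treated and untreated DKO libraries lay apart.

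**Figure D3:**
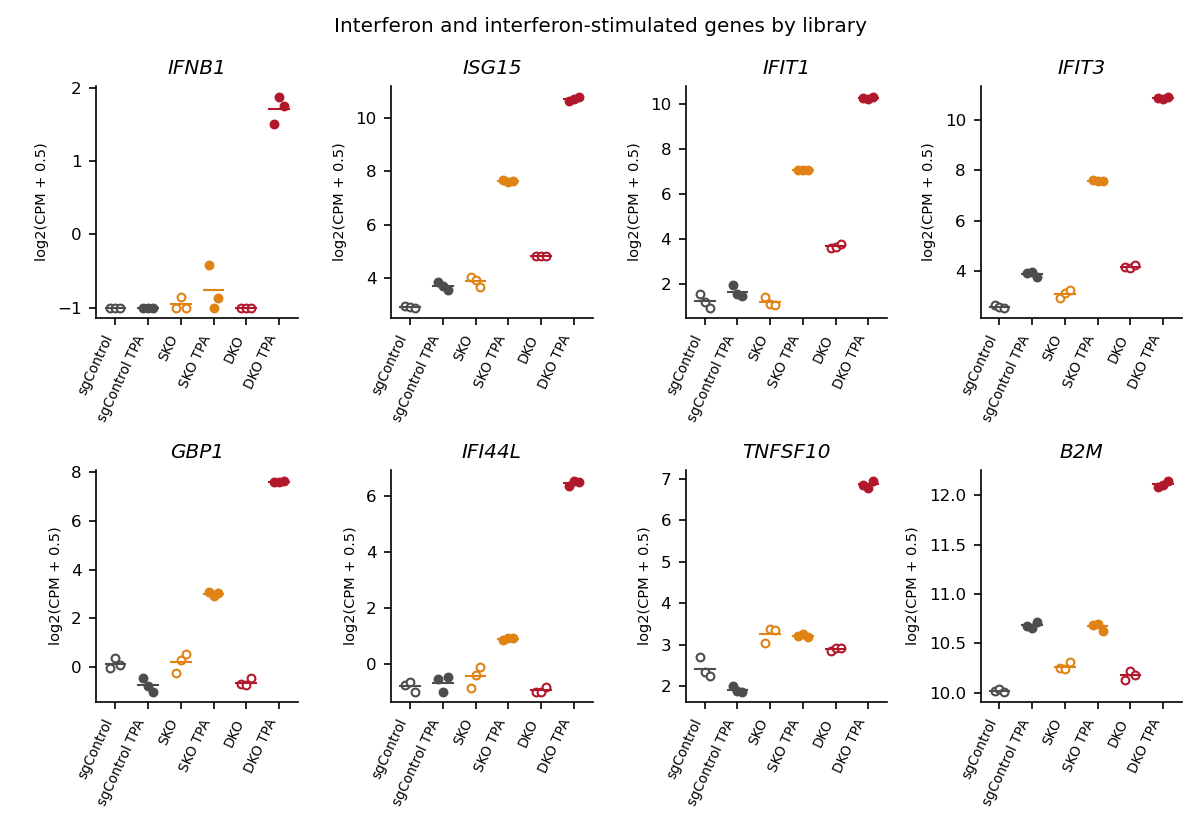
Level of 8 genes as log2(CPM + 0.5) (y axes, scaled per gene) in each library of 6 U937 groups (x axes), drawn as in the plot of macrophage genes. The 3 TPA-treated DKO libraries lie above all other libraries in every panel, with ISG15 at 1571 to 1775 CPM, and the TPA-treated SKO libraries lie between them and sgControl for ISG15, IFIT1, IFIT3, GBP1 and IFI44L.

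Interferon genes themselves were read at low levels. IFNB1, the gene of interferon beta (chromosome 9, 21077104 to 21077942), had 0 reads in the untreated DKO and 2.35, 3.20 and 2.90 CPM with TPA (281 reads in all, at least 102-fold). IFNB1 had 0 reads in sgControl with and without TPA and a mean of 0.0985 CPM in treated SKO. Since sgControl held no reads, the difference from it could not be fitted for IFNB1 (adjusted p = 1), and the difference from the SKO response had an adjusted p of 0.0176 in edgeR but did not pass in DESeq2. IFNL1, of the lambda interferons, went from 2 reads to 277 reads in the DKO libraries. Of 12 tested interferon genes, receptors and signal regulators 11 rose and 1 fell (median 1.20), and SOCS3, a feedback inhibitor, rose from 0.876 to 19.4 CPM. Among sensors of nucleic acid 13 of 19 rose and 5 fell (median 0.88), beside 36.9% and 36.2% of all genes tested. TLR3, a receptor for double-stranded RNA, led the rises, from 0.203 to 11.3 CPM. IFIH1, the cytosolic RNA sensor MDA5, is on the list of interferon-stimulated genes and rose from 52.2 to 929 CPM.

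Antigen presentation split by class. Of 20 genes of MHC class I presentation 18 rose and 0 fell in DKO (median 1.42), while the median was 0.02 in sgControl and 0.16 in SKO. Without TPA replicate 1 of the DKO, 18 rose with a median of 1.47. The DKO response was larger than that of sgControl for 19 and smaller for 1, TAPBPL. HLA-B rose from 921 ± 16.3 to 3262 ± 135 CPM (mean ± SD, n = 3), B2M, the shared light chain, from 1121, 1188 and 1161 to 4342, 4398 and 4543 CPM, and TAP1, the peptide transporter, from 57.4 to 604 CPM. HLA genes share sequence, so reads can be lost or split between them. Of 15 tested genes of MHC class II presentation 3 rose and 7 fell (median -0.53), beside 36.9% and 36.2% of all genes tested. In sgControl 1 of them rose and 5 fell, and in SKO 6 rose and 3 fell. CIITA, the class II master regulator, fell from 5.92, 5.17 and 6.73 to 0.783, 0.752 and 0.709 CPM. The log2 fold change of CIITA was -2.98 (SE 0.26), against -0.18 in sgControl and -0.35 in SKO, and the difference from sgControl was -2.80 (adjusted p = 5.68e-08). HLA-DRA fell from 12.9 to 2.98 CPM. Of 22 tested immune ligands and checkpoints 16 rose and 3 fell (median 1.14). CD274, which encodes PD-L1, rose from 0.407 to 13.2 CPM and HAVCR2, which encodes TIM-3, from 6.11 to 414 CPM, while CD70 fell from 17.3 to 3.67 CPM.

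**Figure D4:**
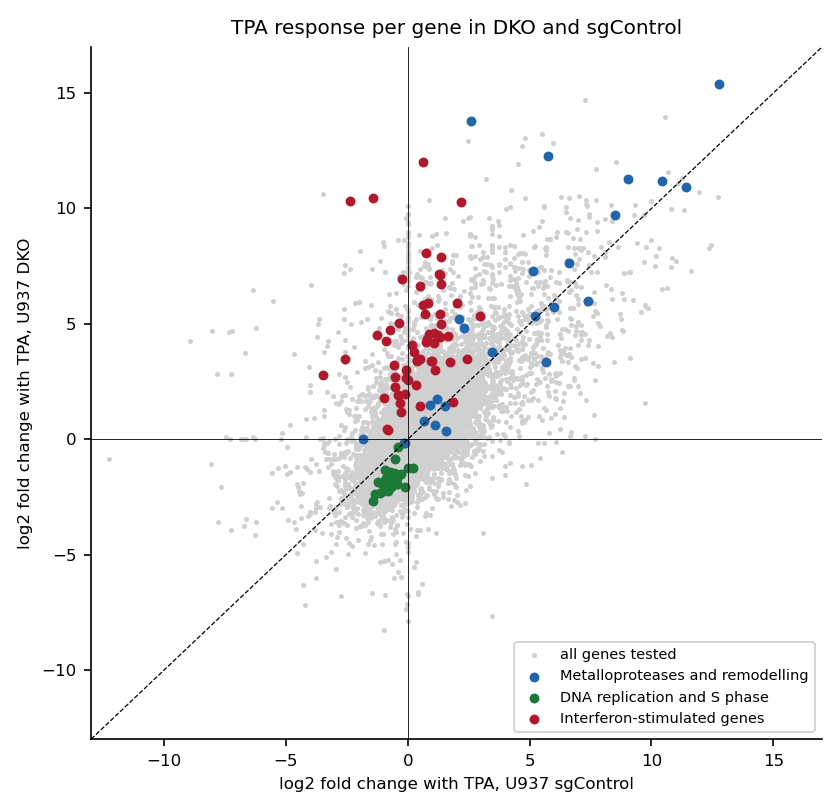
Log2 fold change with TPA of each of the 16989 genes tested (grey points) in U937 sgControl (x axis) and DKO (y axis), with 3 gene lists coloured; the dashed line marks equal responses. Of the 58 interferon-stimulated genes 57 had a larger response in DKO, with a median of 4.18 against 0.50, and the 38 S phase genes lie below 0 in DKO.

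Genes of the cell cycle fell. All 38 genes of DNA replication and S phase fell in DKO, 36 of them by 2-fold or more (median -1.86), and 36 of 39 genes of mitosis fell (median -1.45). The medians in sgControl were -0.79 and -0.42, and in SKO -0.82 and -0.69. The fall was steeper than in sgControl for 36 S phase and 36 mitosis genes, and steeper than in SKO for 36 and 35. MCM2, a subunit of the replicative helicase, went from 246, 248 and 255 to 60.0, 52.5 and 54.7 CPM. The log2 fold change was -2.16 (SE 0.0425, adjusted p = 2.79e-32), and in sgControl MCM2 went from 300 to 167 CPM. CCNA2, which encodes cyclin A2, went from 122, 125 and 125 to 41.5, 39.2 and 39.7 CPM, and E2F1, the S phase factor, from 33.5, 32.4 and 30.5 to 8.79, 8.75 and 7.33 CPM. MKI67, the proliferation antigen Ki-67, fell from 615, 614 and 619 to 319, 285 and 281 CPM in DKO and rose in sgControl from 720 to 886 CPM. The groups did not overlap in any of these genes. TPA replicate 1 had the highest level of MCM2, CCNA2, E2F1 and MKI67 among the treated DKO libraries. Without it the S phase median was -1.92, all 38 still fell, and 37 mitosis genes fell. UBE2C was the 1 mitosis gene called higher (0.772 to 1.30 CPM, adjusted p = 0.0166), and without replicate 1 its adjusted p was 0.36.

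**Figure D5:**
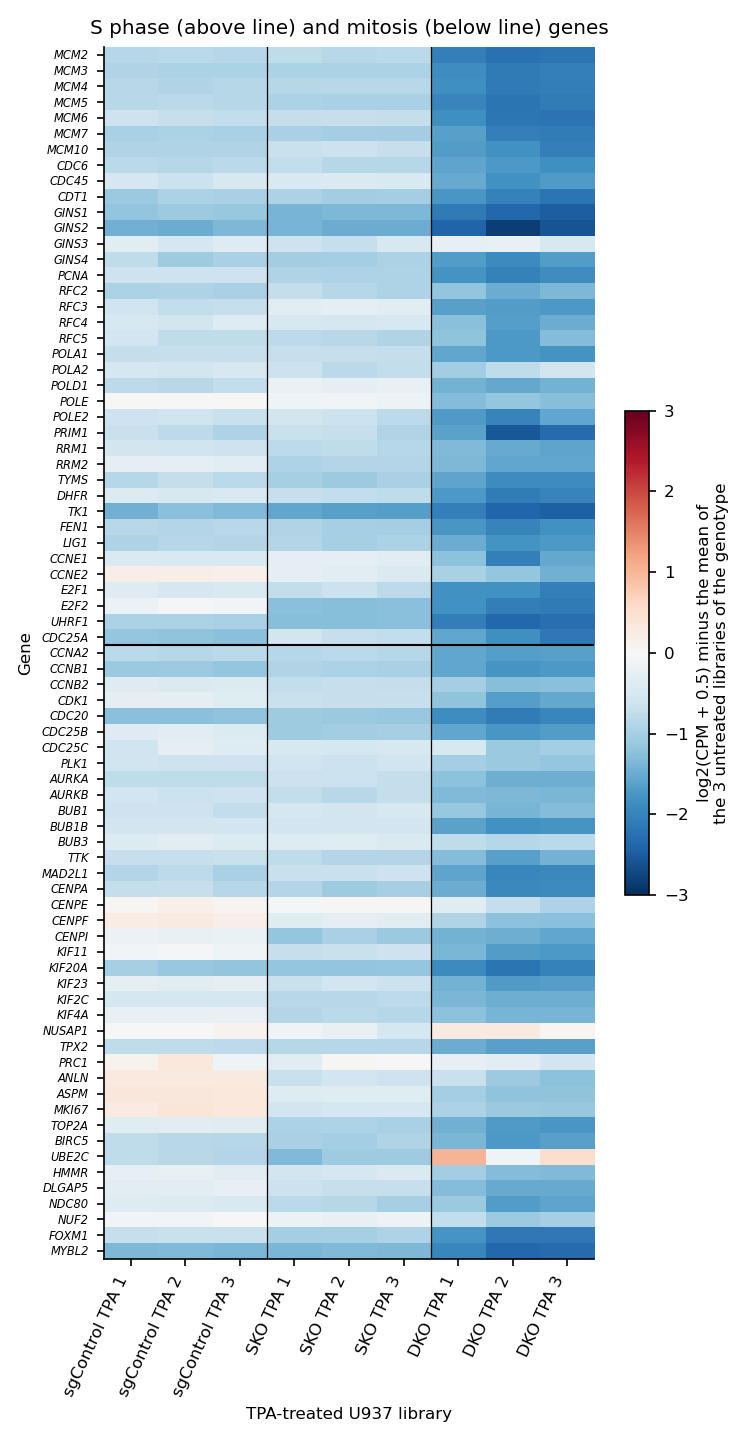
Change of 38 S phase genes (above the line) and 39 mitosis genes (below) in each of 9 TPA-treated U937 libraries (columns), as log2(CPM + 0.5) minus the mean of the 3 untreated libraries of the genotype (colour, blue lower, red higher). In most rows the 3 DKO columns are the darkest blue, with UBE2C, NUSAP1 and PRC1 among the exceptions. Levels of these genes were low: UBE2C stood at 0.444 to 2.00 CPM over the DKO libraries. NUSAP1 reached at most 0.605 CPM and PRC1 at most 1.74 CPM in any U937 library. The list medians of the fitted changes are -1.86 and -1.45, against -0.79 and -0.42 in sgControl.

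Arrest and growth genes moved with them. CDKN1A, which encodes the cyclin-dependent kinase inhibitor p21 (chromosome 6, 36676460 to 36687337), rose from 14.4, 13.1 and 13.9 to 1152, 1254 and 1287 CPM. Its log2 fold change of 6.48 (SE 0.0582, adjusted p = 1.35e-42) exceeded that of sgControl by 1.94 (SE 0.102, adjusted p = 3.84e-18). CDKN2B, the inhibitor p15, rose from 4.78 to 75.7 CPM. Of 29 cell cycle inhibitors and p53 targets 18 rose and 8 fell (median 0.57), beside 36.9% and 36.2% of all genes tested. MYC fell from 295, 308 and 297 to 73.0, 71.2 and 72.0 CPM, and MXD1, an antagonist of MYC, rose from 29.2 to 423 CPM. Of 28 genes of MYC and ribosome biogenesis 23 fell and 2 rose (median -1.17). Of 78 ribosomal protein genes 77 fell and 0 rose (median -0.88, or 76 and -0.92 without TPA replicate 1), for example RPLP0 from 1411, 1490 and 1467 to 516, 419 and 476 CPM. Many ribosomal protein genes have near-identical pseudogenes, so their levels depend on which reads were kept. All 15 mitochondrially encoded genes fell as well (median -0.78). Of 22 tested replication-dependent histone genes 12 rose and 1 fell (median 1.45), or 2 fell without DKO replicate 3. In a fit of only the 6 DKO libraries the histone median was 2.35, over the members that passed its own low-count filter. H2AC6 rose from 3.39, 3.97 and 3.95 to 34.1, 35.6 and 36.3 CPM. Most histone mRNA lacks a poly(A) tail, so poly(A) libraries read a small part of it, and the share of reads was 0.003% without and 0.013% with TPA. The part of RNA composition in these changes was not tested.

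Genes for the H3K9 mark and heterochromatin fell more often than they rose, with 23 of 34 lower and 8 higher (median -0.30). Of all genes tested, 36.2% fell and 36.9% rose. The other genotypes were similar, with 20 lower and 9 higher in sgControl (median -0.27) and 23 lower and 7 higher in SKO (median -0.38). UHRF1, which couples DNA methylation to replication, fell from 139 to 29.5 CPM, and DNMT3A, a de novo DNA methyltransferase, rose from 57.2 to 127 CPM. Of 17 tested genes derived from retroviruses or transposons 7 rose and 4 fell, beside 36.9% and 36.2% of all genes tested. ERV3-1, an endogenous retroviral envelope gene, rose from 1.58 to 6.90 CPM. The transposable elements themselves were not analysed here.

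Several genes of immature granulocytes fell in DKO. CTSG, which encodes cathepsin G, went from 1267, 1283 and 1243 to between 96.0 and 111 CPM, and ELANE, the neutrophil elastase, from 360, 345 and 372 to 32.9, 37.2 and 36.3 CPM. AZU1 and PRTN3, from the same gene cluster as ELANE, fell from 286 to 49.5 and from 201 to 17.9 CPM. Of 19 tested members of the granulocyte list 11 fell and 4 rose (median -1.56), beside 36.2% and 36.9% of all genes tested. CHIT1, S100A9 and CEBPE were among the rises. The falls of CTSG and ELANE were smaller than in sgControl, by 2.64 (SE 0.0601, adjusted p = 5.21e-29) and by 0.75 (SE 0.116, adjusted p = 1.1e-06), and treated sgControl held 33.1 and 18.1 CPM. MPO, the defining enzyme of these granules, was near 0 in both groups, at 0.0632 and 0.191 CPM, with the same limit as for CD68. CD38, a surface enzyme that consumes NAD, fell from 42.1 to 6.03 CPM. It belongs to 20 tested progenitor and self-renewal genes, of which 12 fell and 3 rose (median -0.87). Those 3 were BAALC, CD34 and PBX3. The median of this list was -0.71 in sgControl and -0.72 in SKO. MEIS1, a homeobox factor of leukaemic self-renewal, fell from 133 to 33.0 CPM.

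Metabolic and survival genes were divided, where 36.9% of all genes tested rose and 36.2% fell. Of 29 genes of cholesterol and fatty acid synthesis 17 fell and 6 rose (median -0.37), with INSIG1, a sterol sensor partner, lower (829 to 279 CPM) and SQLE, squalene epoxidase, higher (268 to 741 CPM). Of 24 genes of glycolysis and hypoxia 15 rose and 7 fell (median 0.43), among them HK2, a hexokinase (134 to 517 CPM), and ENO1, an enolase, which fell from 3240 to 2193 CPM. Of 29 genes of the integrated stress and unfolded protein responses 14 rose and 11 fell. PHGDH, the entry enzyme of serine synthesis, fell from 308 to 46.9 CPM, and PPP1R15A, which restores translation after stress, rose from 88.7 to 628 CPM. Of 17 BCL2 family genes 11 rose and 4 fell (median 0.43), or 2 fell with RLE size factors. In a fit of only the 6 DKO libraries the BCL2 family median was 0.92, over the members that passed its own low-count filter. BCL2A1, an antiapoptotic member, led the rises, from 140 to 1779 CPM. Of 7 tested metallothionein genes and their regulators 4 rose and 1 fell, with MT2A at 28.7 and 180 CPM.

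The promoters of a metalloprotease and of PLAUR are printed because they hold the TPA response element, TGANTCA read on either strand, to which AP-1 binds. Its matches are in capitals, and sequences run as above. MMP10 (chr11:102780579-102780878, minus strand) has its match 67 bases before the start, and PLAUR (chr19:43670120-43670419, minus strand) 186 bases before it.
MMP10: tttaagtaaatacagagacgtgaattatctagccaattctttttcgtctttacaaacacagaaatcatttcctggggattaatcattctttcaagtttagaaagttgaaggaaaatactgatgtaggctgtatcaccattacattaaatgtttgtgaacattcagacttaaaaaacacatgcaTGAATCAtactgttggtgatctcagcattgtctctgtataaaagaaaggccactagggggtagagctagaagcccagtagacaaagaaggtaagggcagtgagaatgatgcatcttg
PLAUR: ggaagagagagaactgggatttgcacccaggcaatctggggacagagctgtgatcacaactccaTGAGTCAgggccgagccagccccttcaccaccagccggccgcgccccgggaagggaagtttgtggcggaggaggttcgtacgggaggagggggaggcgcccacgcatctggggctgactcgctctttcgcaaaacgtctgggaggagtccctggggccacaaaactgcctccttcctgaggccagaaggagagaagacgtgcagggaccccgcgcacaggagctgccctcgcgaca
MMP10, which encodes stromelysin 2, was at 0, 0.0522 and 0.114 CPM without TPA and at 46.3, 46.1 and 52.8 CPM with it. Of all 27305 promoters 2120 (7.76%) hold the letters. Of the 100 largest rises the table held 70 promoters and of the 100 largest falls 77, under 80% in each case, so a share over these sets is void and not given.

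Markers of other cell types were followed as a check. The counts below stand beside 36.9% higher and 36.2% lower among all genes tested. Megakaryocyte markers summed to 1.49 to 2.08 CPM without and at least 183 CPM with TPA, nearly all of it VWF (0.124 to 170 CPM) and PPBP (0.0923 to 24.5 CPM), and 4 of 7 tested rose. Lymphoid markers summed to 164 to 178 and 416 to 453 CPM, and 10 of 14 tested rose, with IL7R the most abundant (1.30 to 270 CPM). Their part in the results was not tested. The T cell marker CD3E was at or near 0, at 0 and 0.0836 CPM. The U937 identity genes SPI1, ITGB2 (1161 and 2877 CPM) and PTPRC (329 and 621 CPM) were present throughout. MPO, on the same list, was near 0 in both groups, and CTSG, ELANE, AZU1 and PRTN3 fell. Of all 16 such genes 5 rose and 9 fell. Dendritic markers summed to 34.4 to 34.9 and 56.1 to 64.5 CPM. Of 6 tested 3 rose, or 1 among those that passed the low-count filter in a fit of only the 6 DKO libraries. Erythroid markers summed to 12.4 to 13 and 4.92 to 7.65 CPM, and stromal and epithelial markers to 0.722 to 1.43 and 1.24 to 3.92 CPM.

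Outside the lists, the 10 steepest rises and 10 steepest falls among genes of sufficient level included these genes. INHBA, the beta A chain of activin, rose from 0.0559 to 194 CPM. MMP3, which encodes stromelysin 1, and NT5E, which encodes the adenosine-producing enzyme CD73, rose as well, NT5E from 0 reads (at least 1010-fold). MS4A3, a gene of granulocyte progenitors, fell from 64.5 to 2.11 CPM. DEFB1, a defensin, fell from 34.0 to 1.13 CPM, and DEPTOR, an inhibitor of mTOR, from 14.2 to 0.682 CPM.

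The DKO also differed from sgControl by chromosome, which bears on differences of levels. The median log2 difference of DKO from sgControl on chromosome 7 was -0.40 without and -0.39 with TPA, and on X it was 0.37 and 0.34. On chromosome 19 it was 0.27 and 0.26, on chromosome 18 it was -0.22 and -0.34, and on chromosome 6 it was 0.13 and 0.22. The chromosome medians of the DKO response itself lay between -0.15 and 0.20.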

How the data were processed

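Read counts per gene were used as the authors deposited them, in 2 tables with the same 59428 gene rows. Per the file headers, the untreated table was counted with featureCounts by gene name, in pairs, without strand, leaving out reads that mapped to several places or genes. The table with the TPA libraries gives no command. Per the submitters' processing notes, fastp 0.23.4, STAR 2.7.11b, Subread 2.0.6 and hg38 were used. The header of the untreated table gives featureCounts 2.0.6 and GENCODE 38. The library kit keeps strand, so reads of a gene and of an overlapping antisense gene could not be told apart in these counts. All 35 count columns matched a sample.

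The 18 U937 libraries (6 groups of 3) were fitted together in R 4.3.3 with edgeR 4.0.16 (TMM scaling, filterByExpr, quasi-likelihood test, 12 residual degrees of freedom), and p-values were adjusted by Benjamini-Hochberg over all 16989 genes tested, with a threshold of 0.05. The fit was tested on simulated data. Contrasts were TPA over no TPA in each genotype and the difference of the DKO response from the others. A gene with 0 reads in a group was compared with a floor of 3 reads over the group, and intervals of ratios of few reads are exact at 95% and cover counting error only.

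The members and gene lists were chosen with earlier results of these data known. The text names SUV39H1 and SUV39H2, a fixed panel, from each list up to 3 of the steepest rises and 3 of the steepest falls without overlap between groups, the 10 highest and lowest outside the lists, and the extremes of the differences. ALCAM, OSBPL1A, ONECUT2, ACTB, CTSB, MMP1, B2M, IFIH1, MEIS1, MMP10 and PTPRC were named after their values were seen. Some genes of the panel and lists are not reported here. Alternatives were DESeq2 1.42.0, RLE size factors, no filter, only the libraries compared, a replicate block and each library left out.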

Additional observations from a re-analysis of the deposited data

Results flagged for a closer look

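A difference between genotypes in the response to TPA was tested directly for each gene, as the DKO response minus that of another genotype in the same edgeR fit with Benjamini-Hochberg adjustment. Past the test were 8425 genes (49.6% of those tested) against sgControl and 8409 (49.5%) against SKO. The log2 difference from the sgControl response was 6.15 for IFIT1, 5.07 for ISG15 and 1.47 for HLA-B. It was 4.65 for TNFSF10, which rose in DKO and fell in sgControl, and 3.44 for EGR1, which did the same. CDKN1A differed by 1.94. The response was smaller for CTSD (difference -0.67) and ITGAX (difference -2.73) and the fall was steeper for CCNA2 (difference -0.80).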

How the results depend on the processing

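No count of calls over all genes tested moved by over 1.5 times under any alternative, but small counts within lists did, as given beside them. The 6271 rises and 6142 falls of the DKO ranged from 6133 to 6462 and from 5969 to 6205 when each U937 library was left out in turn, and from 5859 to 6587 and from 5820 to 6319 under the other settings. The 3695 larger and 4730 smaller responses than in sgControl ranged from 3359 to 4283 and from 4210 to 4926 over those other settings, and were nearly equal with RLE size factors (4161 and 4210) and DESeq2 (4283 and 4287). RLE size factors moved the median of all genes by 0.0569 in the DKO response.

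The labels number replicates in each group, but nothing ties equal numbers together. For each gene, the log2(CPM + 0.5) of a library was taken as its deviation from the mean of its group. These deviations in an untreated DKO library and the same-numbered treated one correlated by -0.07, -0.057 and 0.015 over 10269 genes. With a replicate block, 6212 genes rose and 6111 fell in DKO, and 3654 responses were larger and 4670 smaller than in sgControl (against SKO, 3727 and 4616).

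The median of the stress response list, 0.03, turned to -0.0288 without U937 DKO replicate 3 and to -0.0552 without U937 DKO TPA replicate 3, and ranged up to 0.0796 with other libraries left out. With only the libraries compared, which tests fewer groups together, the median of dendritic markers was -0.509 and that of stromal markers -0.0802, against 0.661 and 1.31 with all U937 libraries. The dendritic median was 1.21 without U937 DKO replicate 3. With only the libraries compared, the log2 fold change entered for GADD45G was -0.888 (adjusted p = 1.24e-09), against 1.56 (adjusted p = 0.242) with all U937 libraries. The difference from SKO entered for it was -0.527 against 5.13. Both fits use the same counts of the DKO libraries, which leaves little room for such a turn. The values -0.888 and -0.527 may therefore not be those of GADD45G. This was not tested, and they are not read as a reversal of that gene. CD3E, with 8 reads, was at 0 without U937 DKO TPA replicate 2 against 4.68, and ranged up to 5.28 with other libraries left out. The low-count filter was run anew in each fit with fewer libraries, so a list median there covers only the members that passed it. The part this played in the turns above was not tested. Without TPA replicate 1 of the DKO, 5962 of the 6271 rises and 5871 of the 6142 falls were still called.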
